A study of Mus musculus with 2 samples.

Results

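The genes described here are 10 genes of Nodal and activin signalling: Nodal, Tdgf1, Lefty1, Lefty2, Acvr1b, Acvr2a, Acvr2b, Smad2, Smad3 and Smad4. Their 5-hydroxymethylcytosine (5hmC) peaks were taken as those of the captured library that overlap the annotated gene span or lie within 10 kb of it, and 69 of the 108395 deposited peaks met this rule. TET enzymes oxidise 5-methylcytosine to 5hmC, and 5hmC-Seal tags it with a modified glucose and biotin so that DNA fragments carrying it can be captured on streptavidin. The study holds 2 libraries, 1 captured and 1 of the same kind of DNA before capture, both from batch 1. Both came from wild-type prospermatogonia, the foetal male germ cells, at E17.5 of embryonic development, and 30000 cells were pooled from several embryos, with 50 ng of sheared DNA entering the capture. No agent was given and no allele other than wild type is named. Only the peak list of the captured library was analysed here. With 1 pooled captured library there is no replicate, no test between conditions could be made, and every value below describes this library. The depth is unknown because the list holds no read counts.

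Nodal and activins are secreted ligands of the TGF-β family. They bind type II receptors (Acvr2a, Acvr2b), which activate the type I receptor Acvr1b. Nodal also needs the membrane-anchored co-receptor Cripto, the product of Tdgf1. The active receptor phosphorylates SMAD2 and SMAD3, which join SMAD4 and enter the nucleus. Lefty1 and Lefty2 encode secreted inhibitors that are themselves Nodal targets. In the mouse embryo the pathway patterns the early body axes, and in the foetal testis it is known to be active for a short time in male germ cells soon after sex determination, earlier than the stage sampled here.

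All 10 genes had a peak within 10 kb (exact Clopper-Pearson 95% interval of the share 69.2% to 100%), and all 10 had at least 1 peak that overlapped the gene span. Among 21779 protein-coding genes, 78.7% had a peak within 10 kb and 61.6% had one in the span, so the members' interval included the first share and lay above the second. A peak in the span depends on gene length: the share ran from 26.3% to 94.0% of genes over the length classes that hold members. No test was made of either share. Of the 69 peaks, 48 overlapped a member's span and 21 lay in the flanks, and no peak was shared by members. The peaks were spread very unevenly. Acvr1b, Acvr2b and Smad3 together held 44 of them, while Acvr2a had 1 and Smad2 had 2. The peak farthest out that still met the rule lay 9332 bp from Lefty1 at fold 3.20, and the nearest one that missed it lay 10176 bp from Acvr1b at fold 2.88.

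**Figure D1:**
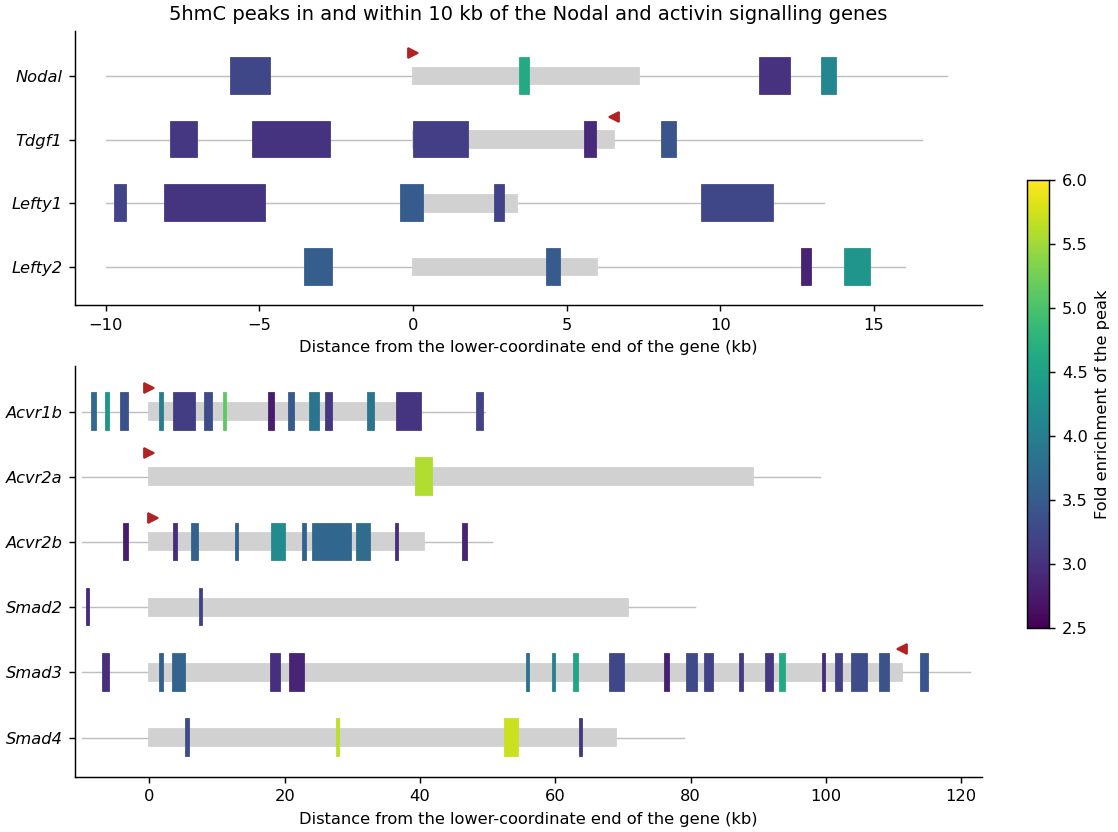
Each row is a gene (grey box) with its 10 kb flanks (line), drawn from the lower-coordinate end of the gene in kb; coloured blocks are peaks, coloured by fold enrichment, and red arrowheads mark the annotated start and direction of the 6 genes that had a promoter entry. Acvr1b, Acvr2b and Smad3 carried 14, 10 and 20 peaks, against 1 in Acvr2a, 2 at Smad2 and 4 in Smad4.

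The starts of the 6 genes with a promoter entry were free of peaks. Most starts were, since a peak overlapped the promoter in 3.39% of 17492 protein-coding genes. From the 6 genes, 4 stretches of promoter are printed to show how different in CpG content these starts were. CpG is the dinucleotide in which most 5hmC lies. Promoter entries (RefSeq, GRCm38.p6, the same build as mm10) matched 6 of the 10 members. The 250 bases before the start are given 5′ to 3′ on the gene's strand, in lower case with every CpG in capitals. Tdgf1 had the peak nearest to its start, Acvr2a the most distant one, Acvr2b is the paralogue of Acvr2a, and Nodal had the lowest CpG content of the 6.
Nodal, chr10:61417722-61417971, plus strand: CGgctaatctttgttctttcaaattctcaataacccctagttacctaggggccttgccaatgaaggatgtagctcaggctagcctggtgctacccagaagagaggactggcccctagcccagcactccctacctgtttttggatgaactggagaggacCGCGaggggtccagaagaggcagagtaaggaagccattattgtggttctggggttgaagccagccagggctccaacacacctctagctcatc
Tdgf1, chr9:110946159-110946408, minus strand: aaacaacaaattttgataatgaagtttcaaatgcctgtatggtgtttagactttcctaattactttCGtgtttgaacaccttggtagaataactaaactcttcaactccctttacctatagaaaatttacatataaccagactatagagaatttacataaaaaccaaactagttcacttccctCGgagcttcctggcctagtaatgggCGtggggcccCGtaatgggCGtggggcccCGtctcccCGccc
Acvr2a, chr2:48813859-48814108, plus strand: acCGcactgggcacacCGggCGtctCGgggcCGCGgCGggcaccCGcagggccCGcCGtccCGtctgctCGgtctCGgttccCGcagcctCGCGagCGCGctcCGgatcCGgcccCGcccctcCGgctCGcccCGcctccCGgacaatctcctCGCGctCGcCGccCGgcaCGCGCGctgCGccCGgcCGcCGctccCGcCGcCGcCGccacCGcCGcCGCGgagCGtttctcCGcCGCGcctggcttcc
Acvr2b, chr9:119401928-119402177, plus strand: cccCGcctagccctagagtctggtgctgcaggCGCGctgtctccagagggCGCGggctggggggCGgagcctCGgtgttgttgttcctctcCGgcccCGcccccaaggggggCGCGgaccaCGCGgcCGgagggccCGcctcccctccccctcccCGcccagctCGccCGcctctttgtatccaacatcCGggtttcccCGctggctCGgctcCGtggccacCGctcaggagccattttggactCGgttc

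Counted over the full 300 bp window, from 250 bp before to 50 bp after the start, Nodal held 5 CpGs and Tdgf1 7, while Acvr2a held 54, Acvr1b 51, Acvr2b 27 and Smad3 25. The median of 17492 protein-coding genes was 13. With a CpG-rich promoter taken as one with a CpG observed/expected ratio of at least 0.6 and at least 50% G and C, both type II receptors, Acvr1b and Smad3 were CpG-rich and Nodal and Tdgf1 were not. The ratios were 0.229 for Nodal, 0.545 for Tdgf1, 0.695 for Acvr2b, 0.753 for Smad3, 1.09 for Acvr1b and 1.14 for Acvr2a.

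No peak overlapped the 300 bp promoter of any of the 6, against 3.39% of all genes with an entry, and 0 of 6 allows a share of up to 45.9% (exact 95% interval). Within 1 kb of the start, 1 of the 6 had a peak (exact 95% interval 0.421% to 64.1%), against 8.16% of genes. It was Tdgf1, whose peak began 591 bp downstream of the start (chr9:110945211-110945567, fold 2.92). Acvr1b had its nearest peak 1506 bp downstream, Smad3 1877 bp downstream, Acvr2b 3072 bp downstream and Nodal 3467 bp downstream. Thus 5 of the 6 genes had their nearest peak inside the gene and within 4 kb of the start, a limit set after the values were seen. The share of all genes with such a peak was not counted. In Acvr2a the nearest peak lay 39437 bp downstream. Over all genes, CpG-rich promoters rarely carried peaks: 0.537% of 8004 (exact 95% interval 0.389% to 0.723%) were overlapped by a peak, against 5.80% (5.33% to 6.29%) of the 9488 others. Coverage at CpG-rich genes was lowest, at 0.287% of genes, 100 bp upstream of the start, and highest, at 11.4%, 2500 bp downstream. The Smad3 peak chr9:63754756-63756117 covered that distance, and those of Acvr1b and Acvr2b nearest the start lay on either side of it.

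**Figure D2:**
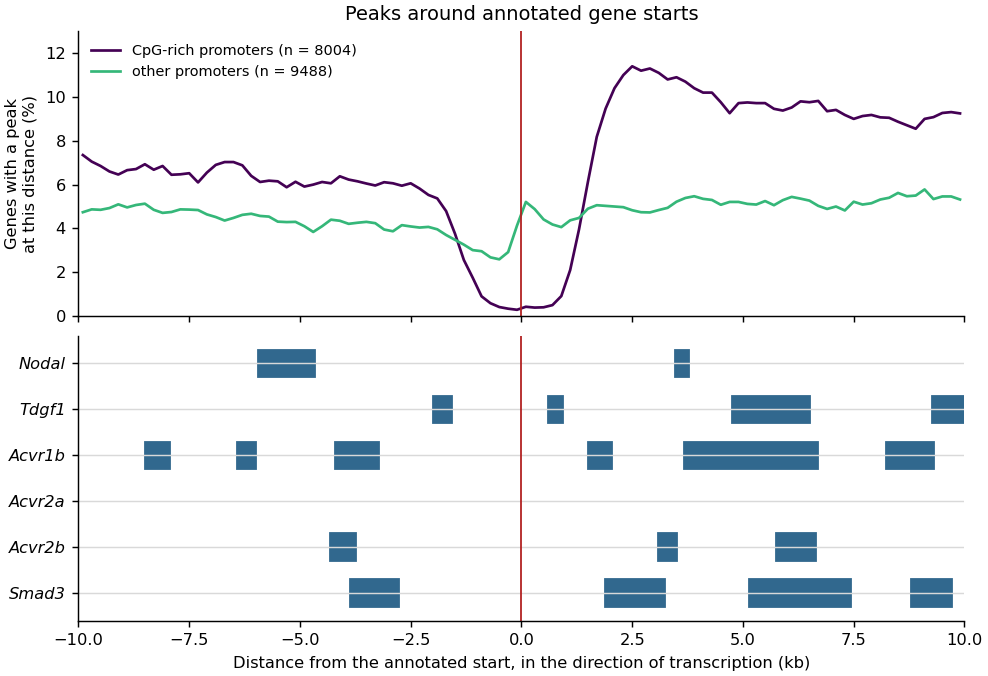
The upper panel gives the percent of protein-coding genes with a peak at each distance from the annotated start, for 8004 CpG-rich and 9488 other promoters; the lower panel shows the peaks of the 6 genes with an entry as blue bars on the same axis in kb. The start itself, marked in red, is free of peaks in all 6 genes, and Acvr2a has none within 10 kb of it. Over all genes with an entry, a peak overlapped the promoter in 3.39%.

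Motif letters were searched on both strands of the same 300 bp. The SMAD motif CAGAC was found in the promoters of Acvr2a, Acvr2b and Tdgf1, 3 of 6, and in 48.8% of all 17492 promoters. The FOXH1 motif AATNCACA was in none of the 6 and in 2.89% of all, and the SMAD palindrome GTCTAGAC in none of the 6 and in 0.212% of all. None of the 3 motifs contains another.

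Nodal, the ligand gene (chr10:61417972-61425338, 7.37 kb), had 4 peaks, 1 of them within the gene. That peak, chr10:61421439-61421756, was 318 bp wide with a fold of 4.63 and a −log10 q of 3.87, the strongest of the 4. A peak of fold 3.24 lay 4666 bp upstream of the start. Beyond the other end, peaks of fold 3.0 and 4.11 both overlapped the neighbouring gene Eif4ebp2, which encodes a repressor of translation initiation. Only 4.32% of the Nodal span was covered, at percentile 56.8 of the 2178 protein-coding genes of its length class (4217 to 7432 bp), in which the median gene was at 0%.

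Tdgf1, the co-receptor gene (chr9:110939608-110946158, 6.55 kb), was covered over more of its length than any other member, at 32.3% of the span. Its 5 peaks were all weak, with folds from 2.92 to 3.41 and no −log10 q above 2.1. Beside the peak near the start, a peak of 1756 bp, chr9:110939652-110941407, lay at the far end of the gene. None of the 5 overlapped another gene. The coverage stood at percentile 91.3 of its length class.

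The inhibitor genes Lefty2 (chr1:180893108-180899107) and Lefty1 (chr1:180935022-180938401) are neighbours 35.9 kb apart, and 9 peaks overlapped the interval between them. Lefty1 had 5 peaks with folds from 3.04 to 3.51, and 17.7% of its 3.38 kb span was covered. All 5 also overlapped another annotated gene, 4 of them the long non-coding RNA gene Gm39715, which itself overlaps Lefty1, and 1 the gene Tmem63a. Which of the overlapping genes these peaks belong to cannot be told from positions alone. Lefty2 had 4 peaks, with 7.18% of its 6000 bp covered by a single peak of fold 3.49. In the 10 kb flanks, 31.8% of the sequence around Lefty1 and 9.61% of that around Lefty2 was covered.

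The type I receptor gene Acvr1b (chr15:101174072-101213684, 39.6 kb) had the highest peak density of the 10 genes, 14 peaks or 2.35 per 10 kb of gene and flanks. Of these, 10 were in the span, with 31.4% of it covered, and no stretch within the gene longer than 6.35 kb was without a peak. The strongest, chr15:101185123-101185373, was also the narrowest peak of all 69 at 251 bp, with a fold of 5.13 and a −log10 q of 4.73. The widest, 3679 bp at fold 3.04, ran across the far end of the gene. Coverage was at percentile 98.6 of genes of 35982 to 57286 bp, whose median was 4.15%.

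The type II receptor genes Acvr2b and Acvr2a differed widely. Acvr2b (chr9:119401583-119442148, 40.6 kb) had 10 peaks, 8 of them in the span, and 28.4% of it was covered. Its widest peak, 5577 bp at chr9:119425729-119431305, was also the widest of all members, with a fold of 3.64. The highest fold in the gene was 4.18. Acvr2a (chr2:48814109-48903264, 89.2 kb) had a single peak, chr2:48853546-48855931, and none in its flanks. That peak was strong for these genes, with a fold of 5.58 and a −log10 q of 5.91, and the 2386 bp it spans are 2.68% of the gene. The density was 1.65 peaks per 10 kb for Acvr2b (exact Poisson 95% interval 0.792 to 3.04) and 0.0916 for Acvr2a (0.00232 to 0.510). These intervals do not overlap, but they cover counting error only and assume that peaks are independent. The contrast in number rests on weak peaks: at a −log10 q of at least 3, 1 peak was left at each gene, covering 4.59% of Acvr2b and 2.68% of Acvr2a.

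Among the receptor-activated SMAD genes, Smad3 and Smad2 showed the same kind of contrast. Smad3 (chr9:63646766-63757994, 111 kb) had 20 peaks, 18 of them in the span, where 17.4% was covered, at percentile 97.1 of genes of at least 108875 bp. Folds ran from 2.79 to 4.61, with the highest at chr9:63739907-63740675. The peaks were not even along the gene: 14 lay on the start side of a peak-free stretch of 32.9 kb and 4 on the far side. Smad2 (chr18:76241090-76311748, 70.7 kb) had 1 peak in the span, chr18:76248568-76248847, of 280 bp and fold 3.18, and 1 in a flank at fold 2.91 over the non-coding gene Gm52360. A stretch of 62.9 kb of Smad2 held no peak, and 0.396% of the gene was covered, at percentile 14.3 of its length class. Per 10 kb there were 1.52 peaks (0.931 to 2.35) at Smad3 and 0.221 (0.0267 to 0.797) at Smad2, and these intervals do not overlap either. They too cover counting error only and assume that peaks are independent, and the difference was not tested. At a −log10 q of at least 3, 2 peaks were left at Smad3, covering 1.25% of it, and 0 at Smad2.

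Smad4, the gene of the shared partner (chr18:73634790-73703791, 69.0 kb), had 4 peaks, all in the span, and 4.22% of it was covered, close to the median of 4.01% of its length class. It held the 2 peaks of highest fold among the 69: chr18:73687355-73689291 at fold 5.72 and −log10 q 6.36, and chr18:73662569-73662871 at fold 5.65 and −log10 q 5.77. By −log10 q the Acvr2a peak, at 5.91, stood between them. The other 2 had folds of 3.30 and 3.07.

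Most member peaks were weak calls. Their median fold was 3.30 and their median −log10 q 1.76, against 3.35 and 1.83 over all 108395 peaks. A −log10 q of at least 3 was reached by 14.5% of them (10 peaks), against 24.2% of all peaks, and one of at least 5 by 4.35% (3 peaks), against 11.9%. Those 3 strong peaks were in Acvr2a and Smad4, which were among the sparsest members. So 2 of the 10 genes had a peak of −log10 q at least 5 within 10 kb, against 16.3% of protein-coding genes, which is near the background. Acvr1b, Acvr2b and Smad3, with many peaks, had none. Member peaks had a median width of 792 bp, against 636 bp for all peaks.

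**Figure D3:**
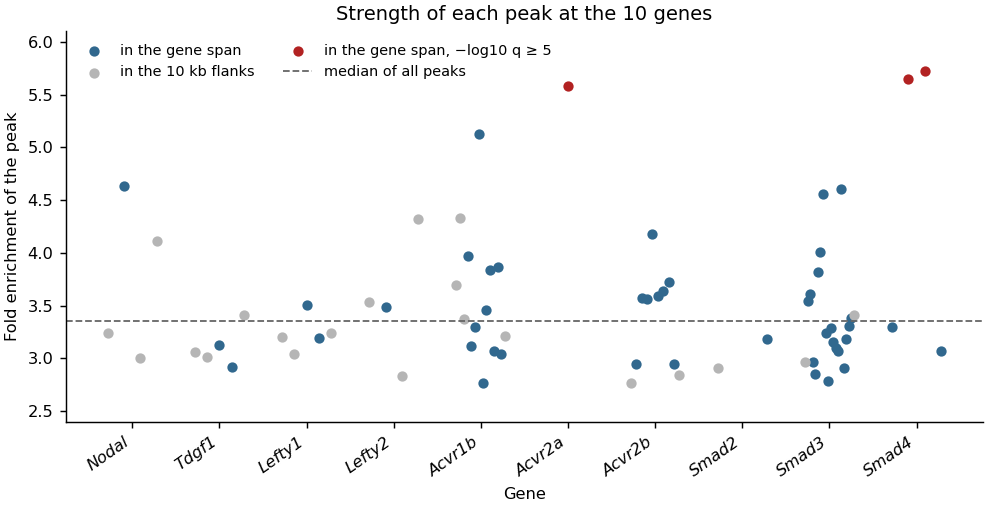
Each point is 1 peak, placed by gene and by its fold enrichment; blue points lie in the gene span, grey points in the 10 kb flanks, and red points have a −log10 q of at least 5. The dashed line is the median fold of all peaks, 3.35; the 3 red points, in Acvr2a and Smad4, stand between 5.58 and 5.72.

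Over the 10 genes the median share of the span covered was 12.3%, against 2.25% over all protein-coding genes. Most members are long, with a median span of 40.1 kb against 17.2 kb, so each was also set beside genes of its own length. Coverage exceeded the median of the length class in 8 of the 10 genes, all except Acvr2a and Smad2. For Nodal, Tdgf1, Lefty1 and Lefty2 that median was 0%, so any peak in the span exceeded it. Nodal, Lefty2 and Smad4 stood at percentiles 56.8, 63.2 and 51.5 of their classes. Coverage was above the upper quartile in Tdgf1, Lefty1, Acvr1b, Acvr2b and Smad3. By density, 7 members had over 1 peak per 10 kb, between 1.46 and 2.35, while Smad4, Smad2 and Acvr2a had 0.449, 0.221 and 0.0916. The median over all protein-coding genes was 0.520, with quartiles at 0.152 and 1.06. Coverage at a −log10 q of at least 3 was 0% in Tdgf1 and Lefty1 and 0.634% in Acvr1b, so the order of the genes by coverage depends on the weak calls. No test was made of the list, and the members were chosen with earlier results of these data in view.

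**Figure D4:**
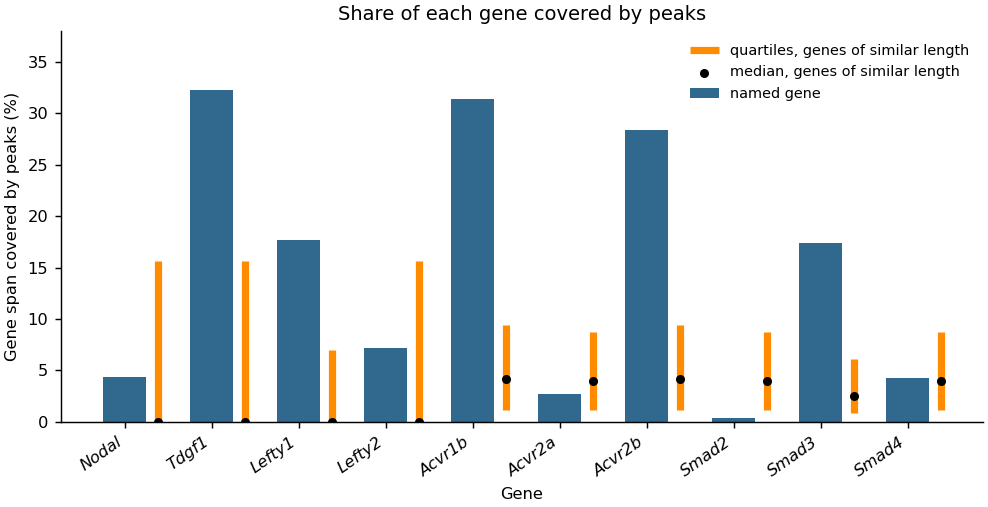
Blue bars give the percent of each gene span covered by peaks; beside each bar the orange line spans the quartiles and the black point the median of protein-coding genes in the same length class. Tdgf1, Lefty1, Acvr1b, Acvr2b and Smad3 rise above the upper quartile, and Acvr2a and Smad2 fall below the median.

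Peak density in the surrounding DNA also differed between the members. In the 500 kb on either side of each gene's window, Acvr1b had 134 peaks per Mb, Acvr2b 125 and Nodal 116, against a median of 58.0 over protein-coding genes. Lefty2 had 98.0, Lefty1 95.0, Tdgf1 89.0 and Smad3 88.0. The 3 sparse members had less, with 77.0 around Smad2, 65.0 around Smad4 and 19.0, percentile 12.1, around Acvr2a. Thus 9 of the 10 genes lay above the median of the surroundings, and the 7 dense members lay above the 3 sparse ones without overlap. The split into dense and sparse was made after the densities were seen, and the gap ran only from 77.0 to 88.0. Within the dense group the order was not kept. Nodal, with 1.46 peaks per 10 kb, had 116 per Mb around it, and Lefty1, with 2.14, had 95.0. Acvr1b was highest in both. Among the sparse members, Smad2 (0.221) had more around it than Smad4 (0.449), and Acvr2a was lowest in both. Lefty1 and Lefty2, 35.9 kb apart, share most of their surroundings and are not independent. The part of regional density in the members' values was not tested.

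The ends of the genes gave 3 of 10 members with a peak within 1 kb of either end (30.0%, exact 95% interval 6.67% to 65.2%), namely Tdgf1, Lefty1 and Acvr1b. The background was 26.6%, inside that interval.

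Of 37 other genes of the pathway, 32 had a peak within 10 kb (86.5%, 71.2% to 95.5%) and 13 had one at a gene end (35.1%, 20.2% to 52.5%), both intervals including the background. Their median span coverage was 3.16%. Among 9 genes of ligands and of the enzymes that process them, 8 had a peak within 10 kb (51.8% to 99.7%, which includes the background of 78.7%). Coverage was highest in Inha (51.0%), the convertase gene Furin (41.6%) and the ligand gene Gdf3 (25.6%). Inha encodes the alpha subunit of inhibins. Inha, Furin, Gdf3 and Gdf1 had a gene-end peak (44.4% of the 9, 13.7% to 78.8%, which includes the background of 26.6%). Inhba, which encodes an activin subunit, had 1 peak and 0.852% coverage, and the myostatin gene Mstn had no peak. Of the other receptor genes, the type I receptor gene Acvr1c had 2 peaks with folds up to 7.05, and the Cripto-related co-receptor gene Cfc1 had none.

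Of 5 genes of inhibitors outside the cell, 3 had a peak within 10 kb (60.0%, 14.7% to 94.7%, which includes the background of 78.7%). A gene-end peak was found at 2 of the 5 (40.0%, 5.27% to 85.3%, which includes the background of 26.6%). Cer1, a secreted Nodal antagonist, was 21.3% covered and had a gene-end peak, as had Tmeff1, 15.6% covered. Dand5, another antagonist gene, was 2.69% covered, and the activin-binding follistatin genes Fst and Fstl3 had no peak within 10 kb. All 13 genes of SMAD partners and regulators had a peak within 10 kb (75.3% to 100%, which includes the background of 78.7%). Coverage was 40.7% in Smad7, the inhibitory SMAD gene, with 11 peaks, 37.9% in Tgif2 and 24.6% in Tgif1, both genes of SMAD co-repressors. Foxh1, which encodes the DNA-binding partner of SMAD2 and SMAD3, had 1 peak, outside its span. Of 8 target genes 7 had a peak within 10 kb, all but Sox17. A peak in the span was found at 3, with coverage of 11.3% in T, 9.96% in Lhx1 and 7.85% in Eomes. The background was 61.6% of all protein-coding genes. It was 46.4% of those of 4217 to 7432 bp, and the targets are short, with a median of 7.03 kb. None had a gene-end peak (0% to 36.9%, which includes the background of 26.6%).

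In the sister branch of BMP and TGF-β signalling, all 18 genes had a peak within 10 kb (81.5% to 100%), an interval just above the background of 78.7%, and 5 had one at a gene end (27.8%, 9.69% to 53.5%, which includes the background of 26.6%), namely Smad6, Bmp7, Acvrl1, Smad1 and Bmp4. The median length of the 18 genes was 61.4 kb, and over all protein-coding genes the share with a peak within 10 kb was 36.0% in the shortest length class and 95.1% in the longest. In the class that holds this median (57306 to 108874 bp) it was 92.1%, a share inside the interval of the 18 genes. The median coverage was 7.77% and the median density 0.837 peaks per 10 kb, against 12.3% and 1.53 for the 10 genes. Smad6, the inhibitory SMAD gene of that branch, was 33.9% covered, the ligand gene Bmp7 33.5% and the receptor gene Acvrl1 19.0%. The difference between the lists was not tested.

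**Figure D5:**
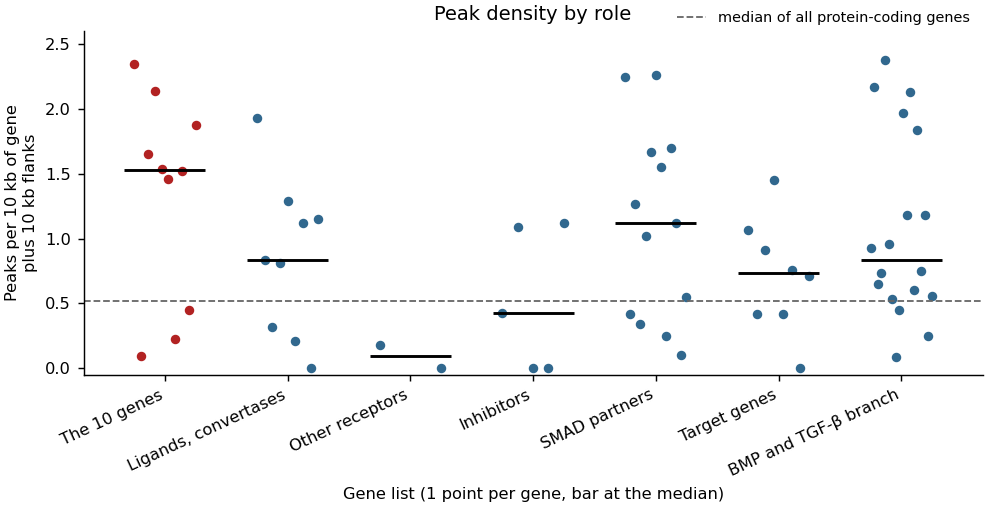
Each point is 1 gene, placed by its peaks per 10 kb of gene plus flanks, with a bar at the median of each list; the dashed line is the median of all protein-coding genes, 0.520. The 10 genes have their median at 1.53 and fall into 7 genes at 1.46 or more and 3 at 0.449 or less.

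Peaks at marker genes cannot show which cells the DNA came from, since peaks are not expression. A peak within 10 kb was found at 9 of 10 germ cell markers (55.5% to 99.7%), 11 of 12 markers of the testis soma (61.5% to 99.8%) and 8 of 10 markers of blood and endothelium (44.4% to 97.5%). The background of 78.7% lies in all 3 intervals. Markers without such a peak were Nanos2 (germ cell), Hsd3b1 (soma), and Ptprc and Hbb-bs (blood and endothelium). Coverage was highest in the germ cell genes Sall4 (58.8%), Pou5f1 (34.5%) and Dnd1 (33.8%), in the somatic genes Nr5a1 (24.4%), Cyp11a1 (5.87%) and Gata4 (4.71%), and in the blood and endothelial genes Cd68 (83.5%), Tie1 (30.3%) and Pecam1 (13.1%). The median coverage was 7.73% for germ cell, 1.13% for somatic and 4.50% for blood and endothelial markers. Each list also held genes at 0%. Among germ cell markers these were Dazl and Nanos2, and Mael (1.49%) and Ddx4 (1.51%) were little covered. A gene-end peak was found at 7 of the germ cell markers (70.0%, 34.8% to 93.3%), an interval above the background of 26.6%. No other list had such an interval, and the difference was not tested. Of these markers, Dnd1 (2.54 kb), Tex101 (4.04 kb) and Pou5f1 (4.75 kb) are so short that the 1 kb end windows hold much of the gene. A peak of −log10 q at least 5 lay within 10 kb of 1 of the 10. Gene-end peaks were found at 4 somatic markers (33.3%, 9.92% to 65.1%), Nr5a1, Cyp11a1, Gata4 and Cyp17a1, and at 3 of blood and endothelium (30.0%, 6.67% to 65.2%), Cd68, Tie1 and Spi1, with intervals that include the background. The part of other cells in the members' peaks was not tested.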

How the data were processed

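The authors' deposited list of broad peaks of the captured library was used; its positions are in mouse build mm10. Among tools, the submitters' processing notes list MACS2 2.1.0, Bowtie2 2.5.0, bedtools 2.27.1, Trim Galore, deepTools 3.5.1 and SAMtools 1.16.1. Their roles, settings and any control library are not given in the sources used. The deposited fold enrichment is a ratio over the caller's own background estimate. The deposited −log10 p and −log10 q are values of the whole peak, and the deposited score, not used further, equalled 10 times the −log10 q, cut to a whole number, in 108385 of 108395 peaks. The lowest −log10 q was 1.01.

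Gene spans came from the RefSeq table of GRCm38.p6, and starts from its promoter table (the outermost start where a gene had several, which for Acvr2b lies inside the annotated span). The background was 21779 protein-coding genes on chromosomes 1 to 19, X and Y, without those placed in the opening 3 Mb of a chromosome other than Y, in 10 classes of equal size by length. A percentile is the share of a class below the gene, with ties split. An overlap of 1 bp counted. Exon and intron positions were not used here. Counts used Python 3.11.15, pandas 2.3.3 and scipy 1.17.1, and the interval functions gave 0 differences from a base-by-base count in 2000 simulated windows. Intervals cover counting error only.

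The members and lists were chosen with earlier results of these data known. All 10 members are named, and from each other list the 3 genes with the largest share covered, and those with a gene-end peak where 5 or fewer had one. Inhba, Mstn, Foxh1, Dand5, Dazl, Mael, Ddx4 and genes without a peak were named after their values were seen. Alternatives were the peak threshold, merging of peaks within 1 kb, the window around genes and gene ends, midpoints in place of overlap and a background without X and Y. The planned promoter or gene-end count is given for both gene ends in all members and for the start in those with an entry.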

Additional observations from a re-analysis of the deposited data

How the results depend on the processing

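The peak threshold changed most values. At a −log10 q of at least 3, the members had 10 peaks at 7 genes with a median fold of 4.62, a median span coverage of 0.941% and 0 genes with a gene-end peak, while 37.2% of protein-coding genes had a peak within 10 kb. In the list of other pathway genes, 12 then had a peak, 1 had a gene-end peak, and the median coverage was 0%. At a −log10 q of at least 5 the members had 3 peaks at 2 genes with a median fold of 5.65, a median coverage of 0% and 0 gene-end peaks, against 16.3% of protein-coding genes. The other pathway genes had 4 with a peak, 0 with a gene-end peak and a median coverage of 0%. The fall in coverage at these thresholds follows from the removal of weak peaks.

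Merging peaks within 1 kb moved the members' median coverage to 12.5%. Within 50 kb there were 164 member peaks. The background share with a peak was 61.6% in the span, 71.7% within 5 kb, 86.4% within 20 kb, 93.9% within 50 kb and 81.8% without X and Y. A gene-end window of 2 kb gave 5 members with a peak, and the start window alone, an alternative chosen after seeing the data, gave 1 of 6. Without peaks that overlap another gene, also chosen after seeing the data, 54 peaks at 9 genes were left, and Lefty1 had 0. No paired analysis was possible because the captured library has no replicate. The library before capture was not analysed here, and whether the peak caller used it is not known.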
